A study of Mus musculus with 6 samples.

Results

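The Notch pathway was examined in immortalized podocytes through 10 genes: the receptors Notch1, Notch2, Notch3 and Notch4, the ligands Jag1, Jag2 and Dll1, and the target genes Hes1, Hey1 and Heyl. They were taken by name from the 57132 genes of the count table, and all 10 were found. RNA had been sequenced from 3 samples of the IMWT line (WT, Col4a3+/+) and 3 samples of the IMAS line (AS, Col4a3-/-), each line recorded as coming from a male adult mouse of 8 weeks. Both lines were derived from crosses with H-2kb-tsA58 transgenic mice, which carry a temperature-sensitive T antigen for immortalization, and neither had been treated. Cells of both genotypes were kept at 33 °C with interferon gamma (20 U/mL in the sample records) and differentiated at 37 °C for 14 days by the same records. The study's methods give a shorter differentiation, a lower dose and no interferon gamma during differentiation. There is 1 line per genotype, and the effect of the genotype and of the line cannot be told apart. The samples of a line are numbered as sets 1 to 3, and no source used here says whether a set is a separate culture, so that p-values measure only the spread between these samples.

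In Notch signaling, a ligand of the Jagged or Delta family on a cell binds a Notch receptor on its neighbor. The receptor is then cut by an ADAM protease and by gamma-secretase, and the released intracellular domain enters the nucleus, where it binds the DNA-binding protein RBPJ with a Mastermind coactivator and turns on genes of the Hes and Hey families. In the kidney, Notch signaling patterns the early nephron, is low in mature podocytes, and has been linked to podocyte injury and glomerulosclerosis when it is active again.

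In AS podocytes, 2 of these genes rose and 3 fell when compared with WT podocytes, in a comparison in which 20.4% of all genes tested rose and 19.6% fell. Jag2 rose 3.96-fold and Notch1 rose 2.67-fold. Notch4 fell to 0.233 times, Hey1 to 0.386 times and Jag1 to 0.553 times the WT level. Promoters of the genes that rose and fell are printed here so that the pairs of opposite direction can be set side by side. Windows were matched by symbol in a RefSeq table (GRCm38.p6, C57BL/6J reference sequence, not read from these cells) for 7 of the 10 genes. Hes1, Hey1 and Heyl were not matched. Each window is the 250 bases before the annotated start, written 5′ to 3′ along the gene, and capitals mark the GC box (GGGCGG or its reverse complement), the site of Sp family factors. The windows are Notch1 at chr2:26503823-26504072, minus strand, Notch4 at chr17:34564045-34564294, plus strand, Jag1 at chr2:137116521-137116770, minus strand, and Jag2 at chr12:112929496-112929745, minus strand.
Notch1: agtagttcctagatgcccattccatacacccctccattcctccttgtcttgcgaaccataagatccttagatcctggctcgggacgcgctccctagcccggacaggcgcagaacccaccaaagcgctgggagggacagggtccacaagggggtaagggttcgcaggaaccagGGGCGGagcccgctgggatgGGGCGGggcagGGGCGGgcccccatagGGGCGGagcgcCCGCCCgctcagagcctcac
Notch4: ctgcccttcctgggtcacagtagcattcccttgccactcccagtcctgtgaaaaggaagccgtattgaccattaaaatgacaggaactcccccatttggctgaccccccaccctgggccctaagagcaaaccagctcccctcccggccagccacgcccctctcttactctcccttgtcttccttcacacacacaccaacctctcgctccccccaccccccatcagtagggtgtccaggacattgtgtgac
Jag2: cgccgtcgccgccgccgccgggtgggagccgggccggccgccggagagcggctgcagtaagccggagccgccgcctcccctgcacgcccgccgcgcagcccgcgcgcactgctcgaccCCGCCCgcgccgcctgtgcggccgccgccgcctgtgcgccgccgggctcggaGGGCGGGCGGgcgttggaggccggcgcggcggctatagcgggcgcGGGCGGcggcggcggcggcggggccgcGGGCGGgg
Jag1: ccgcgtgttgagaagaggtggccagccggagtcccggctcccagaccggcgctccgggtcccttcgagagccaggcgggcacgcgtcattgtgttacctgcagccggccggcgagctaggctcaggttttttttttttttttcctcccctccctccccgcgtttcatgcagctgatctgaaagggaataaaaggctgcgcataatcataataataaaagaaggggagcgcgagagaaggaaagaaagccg
The windows of Notch1 and Jag2, which rose, each hold 5 GC boxes, some of which overlap in Jag2, while those of Notch4 and Jag1, which fell, hold 0. Notch2 and Notch3, which did not pass the test, hold 5 and 4. Both windows of Dll1 hold 0. Of other pathway genes that rose, Hey2 holds 3 and Ctbp1 2, while Rbpj, Maml2, Maml3 and Ncstn hold 0. Of those that fell, Dtx1 and Adam10 hold 3 each and Lfng 1. Dlk2, which rose, and Furin and Psen2, which fell, hold 0 in 1 of 2 windows and 2 in the other. Whether the boxes bear on the direction was not tested. The GC box is in 32.7% of 32841 promoter windows of the same length. The Jag2 window has 54 CpG dinucleotides and a GC content of 87.2%, the Notch1 window 16 and 66%, the Jag1 window 20 and 57.2%, and the Notch4 window 4 and 58.4%, against medians of 6 and 52.4% over all windows. The core of the RBPJ site, TGGGAA on either strand, is in 0 of the 8 windows of these 7 genes (Dll1 has 2 windows) and in 21.6% of all windows.

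The total count lay between 45417221 and 54290968 per sample. Col4a3, the gene knocked out in the AS line, was at 938, 1052 and 1272 CPM in the WT samples (CPM, counts scaled to a common library size by TMM) and still at 62.4, 61.2 and 82.9 CPM in the AS samples. It was lower in every AS sample than in every WT sample, by a log2 fold change of -3.98 (standard error 0.15, edgeR, adjusted p = 1.31e-07). WT replicate 1 stood apart from the other two WT samples. A chi-square of the counts, divided by its degrees of freedom, was 47.2 and 49.5 between it and them, and 9.73 between the other two, where sampling noise alone gives about 1. For the Notch genes that passed the test, the fold change without this library is given as well. The label podocyte was checked against 12 marker genes. Synpo, which codes for synaptopodin, was at 803 ± 44.2 CPM in WT podocytes and at 526 ± 30.8 CPM in AS (SD, n = 3 each). The transcription factor gene Wt1 was at 20.6 ± 5.28 and 2.50 ± 0.928 CPM (SD, n = 3 each), and Podxl, for podocalyxin, at 21.2, 11.3 and 9.84 CPM in WT replicates 1 to 3 and 7.25 ± 0.781 CPM in AS (SD, n = 3). The slit diaphragm gene Nphs1 was near the limit of detection, at 0.466 ± 0.00969 and 0.0407 ± 0.0390 CPM (SD, n = 3 each), and Tcf21 had 0 counts in every sample. All 9 podocyte markers that passed the filter differed between the lines, with 3 higher and 6 lower in AS podocytes. Of all genes tested, 40.1% differed, with 20.4% higher and 19.6% lower.

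Levels of different genes were compared per length, as CPM per kilobase of annotated exons. Jag1 was the most abundant of the 10 genes in both lines, at 93.8 ± 8.38 in WT and 51.9 ± 2.45 CPM per kilobase in AS podocytes (SD, n = 3 each). Hes1 came next (29.0 ± 2.53 and 32.6 ± 8.35), then Notch2 (23.7 ± 4.65 and 23.0 ± 4.10), Notch3 (12.2 ± 0.826 and 14.1 ± 2.13) and Notch1 (1.99 ± 0.868 and 5.32 ± 0.872), each as CPM per kilobase in WT and AS podocytes. The ranges of Hes1 and Notch2 overlapped in WT samples, so that their order is not separated there. In WT podocytes the lower genes were Hey1 (0.694 ± 0.0751), Jag2 (0.654 ± 0.0563), Notch4 (0.316 ± 0.105), Dll1 (0.250 ± 0.0833) and Heyl (0.0135 ± 0.0126 CPM per kilobase). Hey1 overlapped Jag2 and Notch4 overlapped Dll1. In AS podocytes Jag2 (2.59 ± 0.281) stood above Hey1 (0.268 ± 0.0336), which overlapped Dll1 (0.248 ± 0.124), and Notch4 (0.0737 ± 0.0170 CPM per kilobase) lay below them, with Heyl last. Thus Jag2 and Hey1, level with each other in WT podocytes, did not overlap in AS podocytes.

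**Figure D1:**
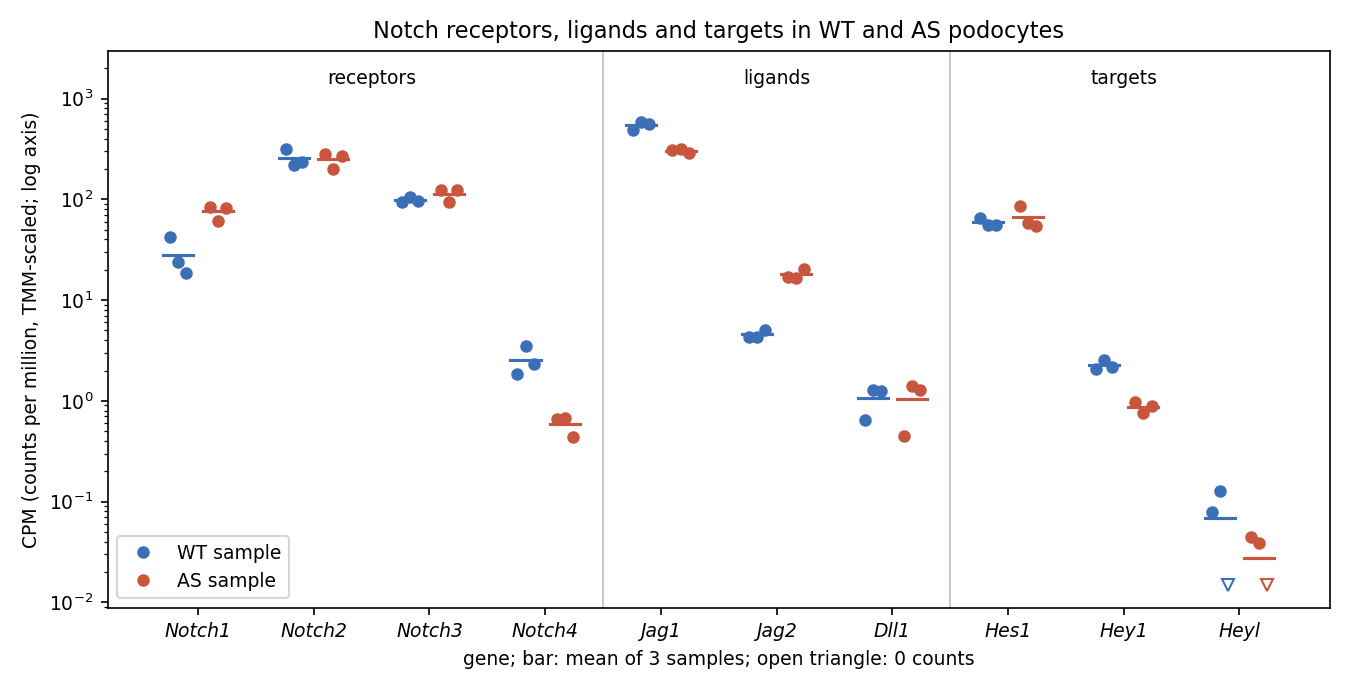
Level of each Notch gene in each sample, as CPM on a log axis (points, 3 WT samples in blue and 3 AS samples in red; bars, mean of 3 samples; open triangles, samples with 0 counts). The points of the lines do not overlap for Notch1, Notch4, Jag1, Jag2 and Hey1, and overlap for Notch2, Notch3, Dll1, Hes1 and Heyl.

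Of the 10 genes, 9 passed the filter on low counts, and 5 of these 9 passed edgeR's test (adjusted p below 0.05), while 40.1% of all 16263 genes tested passed. Higher in AS podocytes were 2 of the 9, where 20.4% of all genes were higher, and lower were 3, where 19.6% were lower. A fold change over 2 along with the adjusted p was reached by 4 of the 9 genes (2 higher, 2 lower), against 11.2% of all genes tested (4.59% higher, 6.59% lower). The groups did not overlap in 5 of the 9 genes (2 higher, 3 lower) and in 52.3% of all genes tested (26.4% higher, 26% lower). The median log2 fold change was 0.00 for the 9 genes and 0.01 for all genes, and the median of its absolute size was 0.85 and 0.28. Without WT replicate 1, the same 5 genes passed. Their log2 fold changes were 1.83 for Notch1, -2.29 for Notch4, -0.93 for Jag1, 1.95 for Jag2 and -1.44 for Hey1. In that fit 19 of the other pathway genes passed in place of 16, and 6776 of all genes in place of 6517.

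Among the receptors, Notch1 and Notch4 differed between the lines in opposite directions. Notch1 (ENSMUSG00000026923.16, chromosome 2), the receptor most often linked to podocyte injury, was at 42.2, 24.1 and 18.6 CPM in WT replicates 1 to 3 and at 84.5, 61.5 and 81.1 CPM in AS replicates 1 to 3. Every AS sample lay above every WT sample, and the highest WT value was that of replicate 1. The mean was 28.3 ± 12.4 CPM in WT and 75.7 ± 12.4 CPM in AS (SD, n = 3 each), a Notch1 log2 fold change of 1.42 (standard error 0.26, edgeR, adjusted p = 0.00193). Without WT replicate 1, the Notch1 log2 fold change was 1.83 (edgeR, adjusted p = 3.11e-06). Exons of Notch1 share 1068 bases with the antisense gene 0610009E02Rik, which had 277 counts over all samples against 15553 for Notch1.

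Notch4 (ENSMUSG00000015468.15, chromosome 17), a receptor known chiefly from endothelial cells, was at 1.83, 3.48 and 2.32 CPM in the WT and 0.666, 0.681 and 0.436 CPM in the AS samples. All AS values were below all WT values, with 363 counts in all in WT and 89 in AS. The log2 fold change was -2.10 (standard error 0.31, edgeR, adjusted p = 0.000673). The summed level of 7 endothelial markers ran from 3.23 to 4.87 CPM in WT and from 1.29 to 2.37 CPM in AS samples. Most of it was Flt1, at 3.05 ± 0.514 and 1.43 ± 0.392 CPM (SD, n = 3 each). The 2 of 7 that passed the filter, Flt1 and Kdr, were both lower in AS podocytes, where 19.6% of all genes tested were lower. The samples of Kdr overlapped. Pecam1, which did not pass the filter, had 24 counts in all in WT and 20 in AS. The defining markers Tie1 and Cdh5 had 0 counts and at most 4 counts per sample. The part of such cells in the Notch4 difference was not tested, and fewer cells of a type and less RNA per cell cannot be told apart in bulk samples.

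Notch2 and Notch3, the abundant receptors, did not pass the test. Notch2 (ENSMUSG00000027878.12, chromosome 3), which is needed for podocyte and proximal tubule precursors during development, was at 312, 220 and 232 CPM in WT and 282, 198 and 266 CPM in AS samples. The samples of the lines overlapped, and the log2 fold change was -0.04 (standard error 0.15, edgeR, adjusted p = 0.870). Its 95% confidence interval by limma-voom ran from -0.38 to 0.31. Notch3 (ENSMUSG00000038146.9, chromosome 17), best known from mural cells of vessels, was at 93.7, 106 and 95.8 CPM in WT and 125, 94.1 and 123 CPM in AS samples. AS replicates 1 and 3 lay above the WT samples and AS replicate 2 among them. The Notch3 log2 fold change was 0.21 (standard error 0.10, edgeR, adjusted p = 0.141), with an interval from -0.04 to 0.44. Without AS replicate 2 it passed, at 0.32 (edgeR, adjusted p = 0.00986).

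The mix of receptors differed accordingly. Notch1 made up 6.77, 4.74 and 3.73% of the receptor total per length in WT samples and 12.5, 12.6 and 12.5% in AS samples. Notch2 made up 66.2, 57.2 and 61.6% in WT and 54.9, 53.4 and 54% in AS samples, and in neither gene did the lines overlap. Notch3 held 32.4 ± 5.32% in WT and 33.2 ± 0.698% in AS podocytes, and Notch4 0.851 ± 0.346% and 0.179 ± 0.0635% (SD, n = 3 each). The exact permutation test of 3 against 3, two-sided, gave p = 0.1 for Notch1, Notch2 and Notch4, the smallest it can give, and p = 1 for Notch3. Adjusted over the 7 shares tested, with the ligands, the smallest of these exact values was 0.14. Without WT replicate 1, the AS minus WT difference was 8.28 percentage points for the Notch1 share, -5.30 for Notch2 and -2.15 for Notch3, in place of 7.43, -7.57 and 0.804. The receptor total was 38.1 ± 4.87 in WT and 42.5 ± 7.08 CPM per kilobase in AS podocytes (SD, n = 3 each; exact permutation p = 0.4).

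**Figure D2:**
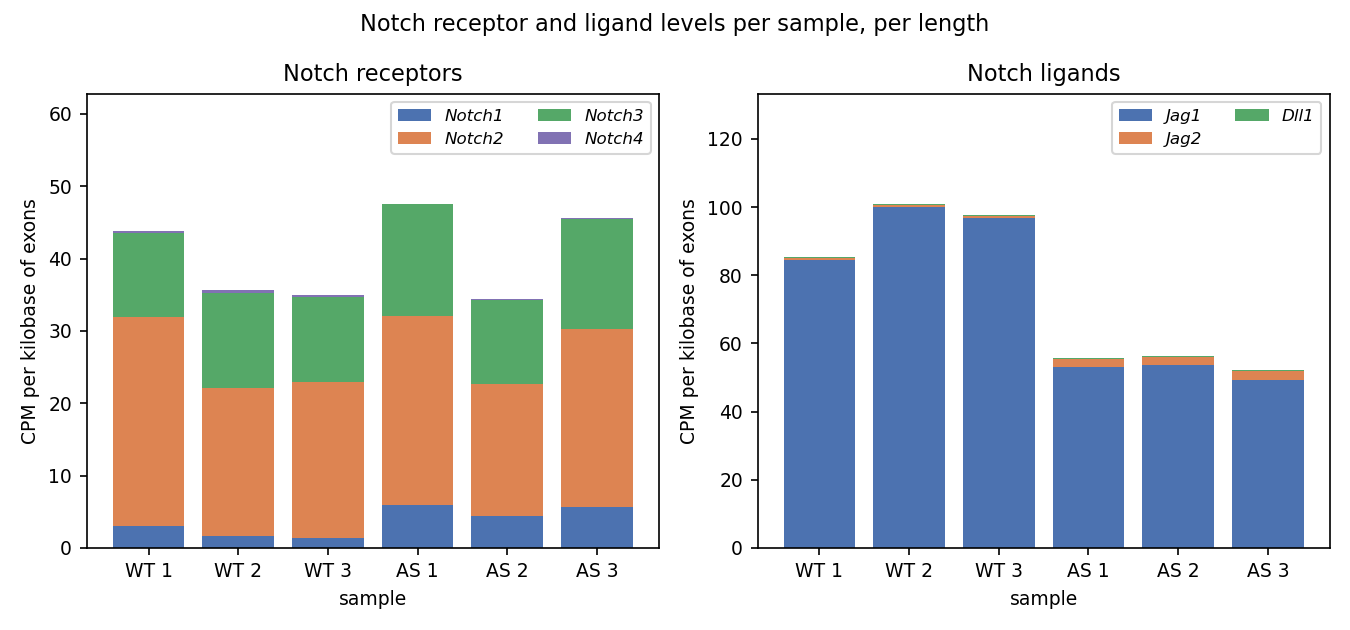
Stacked level of the 4 Notch receptors (left) and the 3 Notch ligands (right) in each sample, in CPM per kilobase of exons on axes that start at 0. Notch2 is the largest receptor segment and Jag1 the largest ligand segment in every sample, and the ligand bars of the 3 AS samples (52.3 to 56.3) lie below those of the 3 WT samples (85.2 to 101).

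Among the ligands, Jag1 fell and Jag2 rose. Jag1 (ENSMUSG00000027276.8, chromosome 2), the ligand that is mutated in Alagille syndrome, was at 492, 585 and 563 CPM in WT and at 309, 312 and 286 CPM in AS samples. The AS samples were close to each other and all below the WT samples. The mean was 547 ± 48.8 CPM in WT and 302 ± 14.3 CPM in AS (SD, n = 3 each), a Jag1 log2 fold change of -0.85 (standard error 0.08, edgeR, adjusted p = 3.12e-05). Jag2 (ENSMUSG00000002799.7, chromosome 12), the other Jagged ligand, was at 4.34, 4.32 and 5.01 CPM in WT and at 17.1, 16.7 and 20.3 CPM in AS samples. Every AS sample was above every WT sample, and the Jag2 log2 fold change was 1.99 (standard error 0.12, edgeR, adjusted p = 2.32e-06), the largest rise of the 9 genes tested. Dll1 (ENSMUSG00000014773.14, chromosome 17), a Delta ligand, was low in both lines, at 0.651, 1.28 and 1.24 CPM in WT and 0.444, 1.40 and 1.29 CPM in AS samples. Replicate 1 was the lowest in each line, and the lines overlapped (edgeR, adjusted p = 1 after rounding). The limma-voom interval of the Dll1 log2 fold change, from -1.09 to 0.98, is wide, with 150 counts in all in WT and 163 in AS, and 20.5% of the exon bases of Dll1 also belong to an antisense gene, A930024N18Rik.

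The ligand total was lower in AS samples, since it consists almost wholly of Jag1. It was 85.2, 101 and 97.7 CPM per kilobase in WT and 55.6, 56.3 and 52.3 CPM per kilobase in AS samples, 0.578 times the WT mean. The lines did not overlap, and the exact permutation test gave p = 0.1, the smallest it can give. The Jag1 share of the ligand total was 99.0 ± 0.0714% in WT and 94.8 ± 0.831% in AS podocytes, and the Jag2 share 0.693 ± 0.0706% and 4.75 ± 0.712% (SD, n = 3 each; exact permutation p = 0.1 for both, 0.14 adjusted over the 7 shares). The ligand total was 1.95, 2.84 and 2.79 times the receptor total in WT and 1.17, 1.64 and 1.15 times in AS samples, again without overlap (exact permutation p = 0.1). WT replicate 1, at 1.95, was the WT sample nearest to the AS samples.

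Among the target genes, Hey1 fell, while Hes1 did not pass the test. Hes1 (ENSMUSG00000022528.9, chromosome 16), a repressor of transcription and the target most often measured for Notch activity, was at 65.1, 56.0 and 56.2 CPM in WT and at 85.9, 58.6 and 54.6 CPM in AS samples. AS replicate 1 was the highest of all samples, and the other AS samples lay around the WT values. Its log2 fold change was 0.17 (standard error 0.15, edgeR, adjusted p = 0.423), with a limma-voom interval from -0.20 to 0.47, and it was -0.07 without AS replicate 1 (edgeR, adjusted p = 0.578). Hey1 (ENSMUSG00000040289.9, chromosome 3), a repressor related to Hes1, was at 2.07, 2.54 and 2.19 CPM in WT and at 0.977, 0.759 and 0.890 CPM in AS samples. The lines did not overlap, and the Hey1 log2 fold change was -1.37 (standard error 0.22, edgeR, adjusted p = 0.00103). Heyl (ENSMUSG00000032744.5, chromosome 4), a further member of the Hey family, did not pass the filter. It had 4, 6 and 0 counts in WT and 2, 2 and 0 counts in AS samples, so that a difference was not detectable at this depth.

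**Figure D3:**
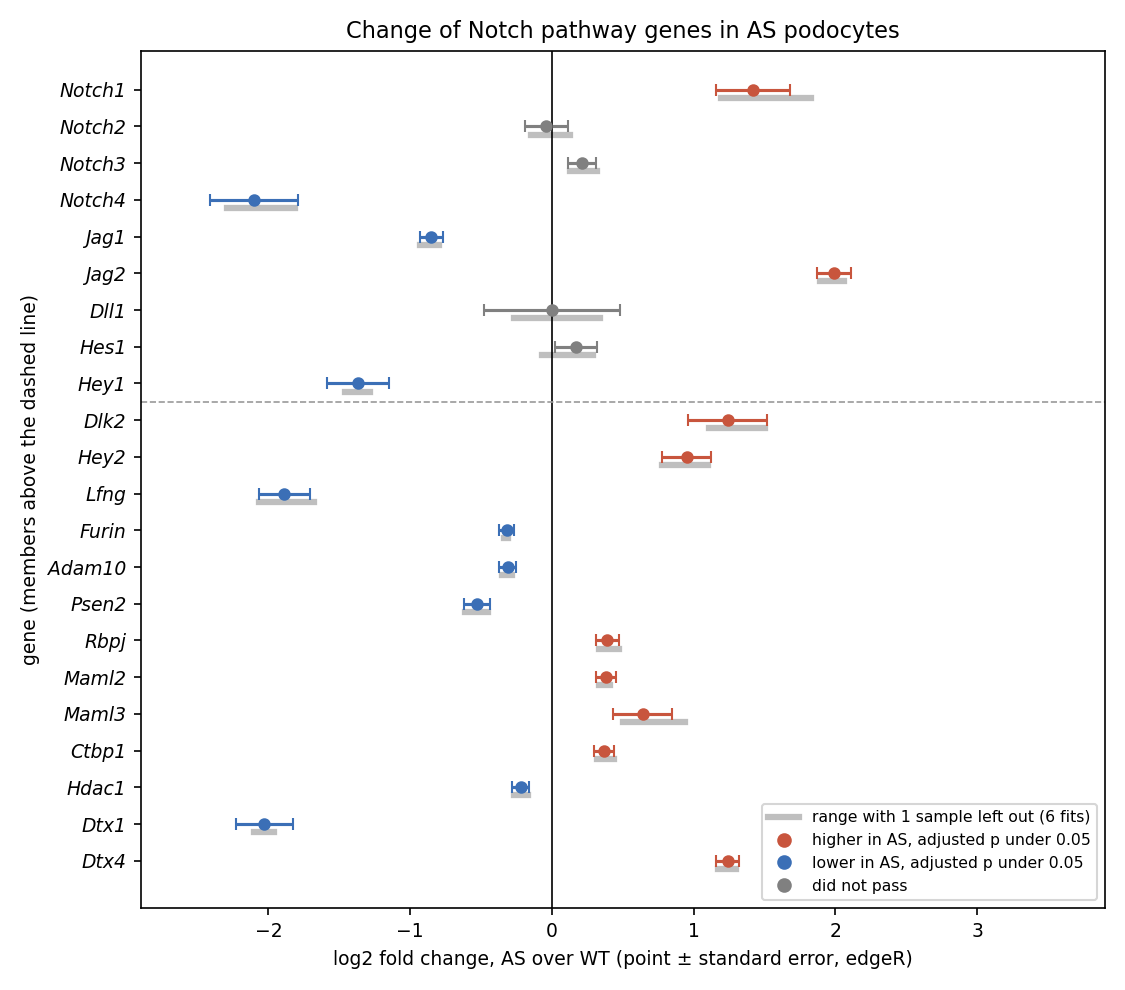
Log2 fold change of AS over WT for the 9 Notch genes tested (above the dashed line) and for 13 other pathway genes (below it), with the standard error from edgeR; gray bars show the range over 6 fits with 1 sample left out. Jag2 (1.99) and Notch1 (1.42) lie farthest to the right and Notch4 (-2.10), Hey1 (-1.37) and Jag1 (-0.85) to the left among the 9, and only Notch2, Dll1 and Hes1 have gray bars that cross 0.

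Other genes of the pathway were taken from lists of known function, 48 genes in all. Of the 43 that passed the filter, 16 passed edgeR's test, or 37.2% against the 40.1% of all genes, with 9 higher and 7 lower in AS podocytes (12 and 6 with library size as the only scaling). A fold change over 2 along with the adjusted p was reached by 4 of the 43 (2 higher, 2 lower), against 11.2% of all genes tested. The median log2 fold change of the 43 was -0.01, and the median of its absolute size was 0.19. Without AS replicate 1 or without AS replicate 3, 11 of these genes passed in place of 16. Of all genes, 5597 and 5120 passed in these fits in place of 6517.

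Among other ligands and targets, the levels were low. Dll3 and Dll4 did not pass the filter, with at most 9 counts in any sample, and Hes5 had 0 counts in every sample. Hes7 did not pass either. Dlk2, a Delta-like protein without the domain that activates the receptor, rose from 0.714 ± 0.208 to 1.69 ± 0.216 CPM (SD, n = 3 each), a Dlk2 log2 fold change of 1.24 (standard error 0.28, edgeR, adjusted p = 0.00604). Its exons share 51 bases with Abcc10 on the other strand, which had 3453 counts over all samples against 357 for Dlk2. Dlk1, a related protein, was at 0.567 ± 0.249 and 0.278 ± 0.106 CPM (SD, n = 3 each; edgeR, adjusted p = 0.114). Hey2, the closest relative of Hey1, was at 4.02, 6.37 and 5.64 CPM in WT and at 9.59, 10.2 and 11.2 CPM in AS samples. The lines did not overlap, and Hey2 rose where Hey1 fell, by 0.95 on the log2 scale (standard error 0.17, edgeR, adjusted p = 0.00168), or by 0.63 with the median of its chromosome removed. Nrarp, a feedback inhibitor that Notch itself turns on, was at 0.679 ± 0.146 and 0.510 ± 0.111 CPM (SD, n = 3 each; edgeR, adjusted p = 0.384).

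Of the enzymes that add sugars to the receptor, Lfng fell. Lfng codes for Lunatic fringe, which lengthens O-fucose on Notch and so favors Delta over Jagged ligands. It was at 82.2, 53.8 and 58.6 CPM in WT and at 21.5, 15.0 and 16.2 CPM in AS samples. Every AS sample was below every WT sample, and replicate 1 was the highest in each line. The Lfng log2 fold change was -1.89 (standard error 0.18, edgeR, adjusted p = 3.99e-05), and it was -1.68 without WT replicate 1. Rfng, for Radical fringe, was at 15.3 ± 0.955 and 17.8 ± 0.0508 CPM (edgeR, adjusted p = 0.0576), Pofut1 at 51.1 ± 1.87 and 48.8 ± 0.201 CPM (edgeR, adjusted p = 0.374), and Poglut1 at 102 ± 5.36 and 92.0 ± 2.47 CPM (edgeR, adjusted p = 0.0537; SD, n = 3 each for these 3 genes). Mfng did not pass the filter. The windows before the starts of Hey2 (chr10:30842784-30843033, minus strand) and Lfng (chr5:140607091-140607340, plus strand), pathway genes that moved in opposite directions, are shown with the RBPJ core TGGGAA or its reverse complement in capitals.
Hey2: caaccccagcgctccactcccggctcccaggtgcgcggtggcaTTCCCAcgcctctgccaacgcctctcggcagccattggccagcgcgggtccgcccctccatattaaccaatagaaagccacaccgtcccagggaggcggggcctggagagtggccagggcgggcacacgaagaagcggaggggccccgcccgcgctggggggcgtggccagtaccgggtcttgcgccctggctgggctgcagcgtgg
Lfng: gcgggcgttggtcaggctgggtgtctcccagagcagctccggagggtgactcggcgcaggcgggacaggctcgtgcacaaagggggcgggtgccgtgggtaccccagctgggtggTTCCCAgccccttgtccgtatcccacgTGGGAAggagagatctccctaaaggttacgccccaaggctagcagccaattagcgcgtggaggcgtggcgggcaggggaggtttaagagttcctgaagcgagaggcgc
Hey2 holds 1 such core, which begins 207 bases before the start, and Lfng holds 2, at 135 and 108 bases before it and on opposite strands, where the core nearer to the start overlaps an E-box, CACGTG. Such letters are a match only, and binding of RBPJ was not measured.

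The receptor is cut in turn by furin, by ADAM proteases and by gamma-secretase, and 5 of 10 genes of these steps passed the test, against 40.1% of all genes. Ncstn was higher, at a log2 fold change of 0.16 with an adjusted p of 0.0316 in edgeR, and Furin, Adam10 and Psen2 were lower. Exons of Ncstn share 195 bases with Copa on the other strand, which had 140306 counts over all samples against 50722 for Ncstn. Furin was at 228 ± 4.17 and 183 ± 2.82 CPM, Adam10, whose protein makes the cut that follows ligand binding, at 247 ± 13.0 and 199 ± 8.59 CPM, and Psen2, a catalytic subunit of gamma-secretase, at 33.7 ± 3.70 and 23.3 ± 1.03 CPM (SD, n = 3 each). Their log2 fold changes were -0.32, -0.31 and -0.53 (edgeR, adjusted p = 0.000995, 0.00345 and 0.00114), all below a fold change of 2. Adam17, the other ADAM protease, was at 50.6 ± 6.10 and 46.2 ± 4.23 CPM (SD, n = 3 each; edgeR, adjusted p = 0.322).

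In the nucleus, Rbpj, Maml2 and Maml3 were higher, 3 of the 6 genes of the activating complex, where 20.4% of all genes were higher. Rbpj was at 125, 104 and 106 CPM in WT and 156, 143 and 138 CPM in AS samples. The lines did not overlap, and its log2 fold change was 0.39 (standard error 0.08, edgeR, adjusted p = 0.00423), or 0.18 after the median of all genes on its chromosome was removed. Maml2 and Maml3, genes of Mastermind coactivators, had log2 fold changes of 0.38 and 0.64 (edgeR, adjusted p = 0.00176 and 0.0367). Maml3 lost the threshold in 4 of 6 fits with 1 sample left out (edgeR, adjusted p up to 0.119), those without WT replicate 2, WT replicate 3, AS replicate 1 or AS replicate 3, and was at 0.94 without WT replicate 1. Among the corepressor genes, Ctbp1 was higher, with a log2 fold change of 0.37, and Hdac1 was lower, at -0.22 (edgeR, adjusted p = 0.00274 and 0.0193). With their chromosomes' medians removed, Ctbp1 was at 0.17 and Hdac1 at -0.06. Hdac1 lost the threshold without AS replicate 1 or AS replicate 3 (adjusted p up to 0.0640, edgeR).

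Of the genes that make the ligand or the receptor turn over, 0 of 4 and 2 of 9 passed, against 40.1% of all genes tested. The 4 ubiquitin ligase genes for ligand endocytosis, Mib1, Mib2, Neurl1a and Neurl1b, did not pass (edgeR, adjusted p from 0.174 to 0.428), and Mib1, the main one, was at 179 ± 19.5 and 166 ± 14.4 CPM (SD, n = 3 each). Of 9 genes for receptor turnover, Dtx1 and Dtx4 passed, in opposite directions. Both are of the Deltex family of ubiquitin ligases that bind the Notch intracellular domain. The other Deltex genes listed, Dtx2, Dtx3 and Dtx3l, did not pass, at log2 fold changes of -0.01, 0.11 and -0.06. Dtx1 was at 3.14, 3.10 and 3.36 CPM in WT and at 0.688, 0.856 and 0.799 CPM in AS samples. Dtx4 was at 23.2, 27.9 and 26.5 CPM in WT and at 61.4, 61.3 and 60.6 CPM in AS samples. The lines were far apart for both genes, and the log2 fold change was -2.03 for Dtx1 (standard error 0.20, edgeR, adjusted p = 4.94e-05) and 1.24 for Dtx4 (standard error 0.08, edgeR, adjusted p = 2.48e-06). The inhibitor gene Numb (30.3 ± 3.31 and 29.4 ± 0.120 CPM) and Fbxw7 (52.9 ± 1.64 and 55.9 ± 2.52 CPM; SD, n = 3 each), which marks the active domain for breakdown, did not pass (edgeR, adjusted p = 0.737 and 0.310).

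**Figure D4:**
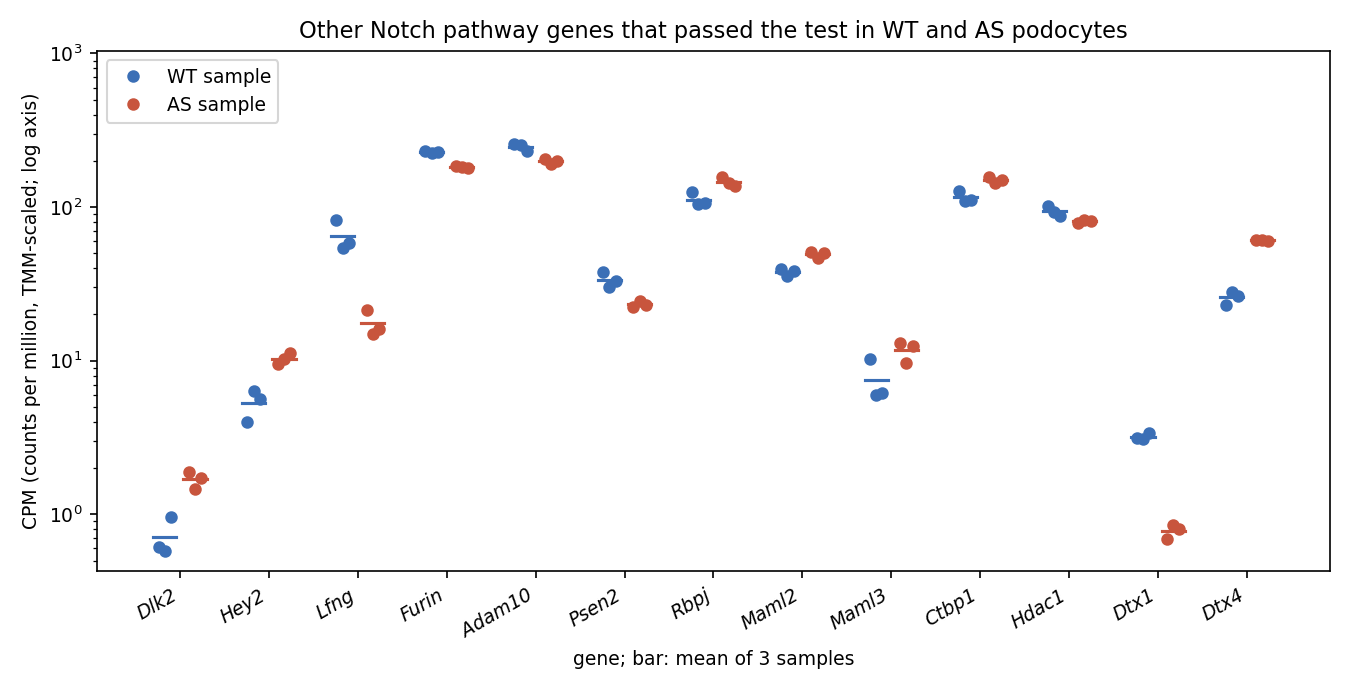
Level of 13 other Notch pathway genes that passed the test, in each sample, as CPM on a log axis (points, 3 WT samples in blue and 3 AS samples in red; bars, mean of 3 samples). Dtx4, Hey2 and Dlk2 sit higher and Lfng and Dtx1 lower in AS samples without overlap, whereas the shifts of Furin, Adam10, Rbpj and Ctbp1 are small and the samples of Maml3 overlap.

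Among markers of other kidney cells, 3 of 7 mesangial and mural and 2 of 4 parietal epithelial genes tested passed. Of the tubule genes tested 0 of 3 passed, and of the leukocyte genes 0 of 2, against 40.1% of all genes tested. Of 7 mesangial and mural markers, Pdgfrb was lower, at 253 ± 14.3 and 116 ± 0.362 CPM, Cspg4 was lower, at 14.6, 8.05 and 7.91 CPM in WT and 0.733, 0.311 and 0.291 CPM in AS samples, and Rgs5 was higher, at 3.27 ± 0.663 and 9.99 ± 1.53 CPM (SD, n = 3 each), while Acta2 was at 6701 ± 1094 and 6759 ± 588 CPM. The summed level of that list, which is mostly Acta2, ran from 5769 to 7915 CPM in WT and from 6430 to 7554 CPM in AS samples. The parietal epithelial list ran from 380 to 467 CPM in WT and from 326 to 349 CPM in AS samples, with 2 of its 5 genes lower. The tubule list, which is mostly Lrp2 (274 ± 30.9 and 255 ± 55.6 CPM, SD, n = 3 each), ran from 251 to 313 and from 203 to 312 CPM. The leukocyte list ran from 1.54 to 3.14 and from 1.87 to 2.78 CPM. The 5 testable genes of the tubule and leukocyte lists had an adjusted p of 0.384 or more in edgeR. The part of these genes' cell types in the Notch differences was not tested.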

How the data were processed

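The 3 WT and 3 AS samples had been profiled by bulk RNA-seq. The deposited values are whole-number gene counts, which the authors left without normalization. The submitters' processing notes name FastQC, Trim Galore, STAR and edgeR and the build mm39, and the counting tool is not given in the sources used here. Per the labels, mRNA libraries had 15 PCR cycles. No molecular identifiers are mentioned, so counts do not stand for independent molecules. Of 57132 identifiers, 51880 were named from GENCODE M21 (GRCm38) without their version, and exon lengths came from the same annotation, so no gene coordinates are given. Exons of Notch1, Notch2, Notch3 and Dll1 overlap other genes in that annotation, and no source used here says that strand was used in counting.

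The software was edgeR 4.0.16, DESeq2 1.42.0 and limma 3.58.1, under R 4.3.3. Low genes were dropped with filterByExpr (at least 10 counts, 15 in total) and libraries were scaled by TMM. The test was the quasi-likelihood F-test of edgeR, in which genotype was the only term, with Benjamini-Hochberg adjustment over 16263 genes. Standard errors are approximate, from the log2 fold change and F. The study names limma-voom, which was run as an alternative and gave the 95% confidence intervals. Other alternatives were DESeq2, other scaling, other filters, a replicate block, each sample left out, and removal of chromosome medians, as well as the longest transcript as gene length. On simulated counts for AS over WT (15981 genes), edgeR recovered 37.5% of genes at a log2 change of 0.5, 75% at 1 and 91% at 2, and 5% of its calls were false. The genes and lists were chosen with earlier results of these data known. Named beside the 10 genes were Col4a3, up to 3 genes of each pathway list with the smallest adjusted p among those that passed, and podocyte markers. Values of 3 further genes are not reported here. Other genes named, with values that did not pass or as cell markers, were chosen after their values were seen.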

Additional observations from a re-analysis of the deposited data

How the results depend on the processing

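Notch1, Notch4, Jag1, Jag2 and Hey1 passed the test in the same direction in all 13 alternatives that have one. The adjusted p reached at most 0.0112 for Notch1, 0.00470 for Notch4, 0.000472 for Jag1, 3.42e-05 for Jag2 and 0.00585 for Hey1. Of 117 values for the 9 genes tested, 107 kept direction and side of the threshold, 2 gained the threshold, both for Notch3 (0.32 without AS replicate 2 and 0.21 without a filter on low counts), and 8 reversed, all in genes that did not pass. With 1 sample left out, the log2 fold change ran from -0.15 to 0.13 for Notch2, from -0.27 to 0.34 for Dll1 and from -0.07 to 0.29 for Hes1. The Dll1 value was 0.03 with library size only and 0.0041 without a filter. The cause was not tested.

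With the longest transcript as length, the AS minus WT difference in share was 10.1 percentage points for Notch1 (7.43 with all exons), -5.44 for Jag1 (-4.25) and 5.23 for Jag2 (4.05). The Notch3 share difference, 0.804, ran from -2.15 to 3.01 with 1 sample left out. Of the other pathway genes, Dlk2, Hey2, Lfng, Furin, Psen2, Adam10, Maml2, Rbpj, Ctbp1, Dtx1 and Dtx4 passed in all 13 alternatives, Hdac1 in 11 and Maml3 in 9. With the median of its chromosome removed, Hey2 was at 0.63, Rbpj at 0.18, Ctbp1 at 0.17 and Hdac1 at -0.06, and the 9 Notch genes moved by less than their standard error.

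The set numbers do not mark a pairing that the sources used here state. Samples of the same number had deviations from their group means with correlations of 0.147, 0.0939 and 0.0526, below the 0.1 set for a pairing in 2 of the 3. Between unlike numbers, the correlations ran from -0.13 to -0.0206, except 0.0571 for WT replicate 3 with AS replicate 2. Deviations cancel out within a group, so these correlations depend on each other and do not settle whether the sets are paired. With the replicate block, 7066 genes passed in place of 6517, 5 of the Notch genes as before, and 20 of the other pathway genes in place of 16. Depth limits Heyl, with at most 6 counts in a sample.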
